A study of Mus musculus with 4 samples.

Results

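Mif, Ddt, Cd74, Cd44, Cxcr4, Cxcl12 and Ackr3 are the ligands and receptors of a small cytokine and chemokine network. They were chosen by gene symbol, and all 7 were found among the 27998 genes counted in each library. Single-cell RNA was measured with the 10x Chromium 3′ assay in medulloblastomas of 4 littermate mice of the strain Atoh1-cre:SmoM2 at postnatal day 20, with 1 library per mouse. All animals carry a constitutively active Smoothened allele (SmoM2) that the Atoh1-driven Cre activates in cerebellar granule neuron precursors, and these form tumours of the Sonic hedgehog (SHH) type. No control animals were analysed here, so classes of cells were compared within each tumour. The comparisons ask which cells of a tumour hold transcripts of the ligands (sources) and which hold transcripts of the receptors (receivers).

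MIF is a cytokine that cells store in the cytoplasm and release without a classical signal peptide. DDT, also called D-dopachrome tautomerase, is its closest relative. Both bind CD74, the invariant chain of MHC class II, which has little signalling capacity of its own and works with the hyaluronan receptor CD44. MIF can also engage the chemokine receptor CXCR4, whose classical ligand is CXCL12, while ACKR3 binds CXCL12 as an atypical receptor that takes the ligand up. In the developing cerebellum CXCL12 from the meninges acts on CXCR4 of granule neuron precursors and holds them in the outer layer where they divide.

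After filtering, 4137 cells were analysed (1368, 888, 710 and 1171 in mice 1 to 4), with median depths of 1733 to 2567 unique molecular identifiers (UMIs, counted transcript molecules) per cell. Granule-lineage-like cells, taken here as the tumour cells, numbered 3728 and were split into 2967 progenitor-like and 761 differentiating granule-like cells. They are the clusters in which fewer than 3 markers of any other cell type were raised. Whether each of these cells is a tumour cell was not tested. By scores of S and G2M genes the progenitor-like cells fell into 986 S phase, 1310 G2M phase and 671 non-cycling cells, and 445 of them lay within 0.05 score units of the limit between cycling and non-cycling. The other named classes were 149 astroglia-like, 147 oligodendrocyte-lineage-like, 39 myeloid-like and 5 choroid plexus-like cells, and 69 cells stayed unnamed. The progenitor-like class is the remainder of the granule lineage, the clusters in which differentiating markers were not raised. None of its own markers stood out: 0 of 7 progenitor markers were raised above the other cells, and Atoh1 and Sfrp1 were at 169 and 368 CPM against 177 and 453 CPM in differentiating granule-like cells, in which 3 of 8 differentiating markers were raised. Of the 9 granule-lineage markers 0 passed that limit in the granule lineage as a whole, where Zic1 was at 500.2 CPM against 288 CPM in all other cells. Raised markers were 8 of 13 in the astroglia-like class, 10 of 11 precursor and 5 of 8 oligodendrocyte markers in the oligodendrocyte-lineage-like class, and 11 of 12 microglia markers in the myeloid-like class. The myeloid-like class also had 3 of 8 macrophage or monocyte and 1 of 4 neutrophil markers raised. No cell held UMIs of 3 or more endothelial, mural or meningeal markers, so the meningeal and vascular cells known for Cxcl12 were not found as a class. Of the astroglia-like cells, 77.2% held under 30 UMIs per 10000 of Malat1, a nuclear RNA, against 21.3% of granule-lineage-like cells. Libraries shared 20 barcode sequences, 9 of them among the analysed cells.

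In the mouse genome (GRCm38, mm10) Mif lies on the minus strand at chr10:75859353-75860240 and Ddt on the same strand at chr10:75771230-75773414, 85938 bases apart. Cd44 lies on the minus strand at chr2:102811141-102901665 and Cxcr4 on the minus strand at chr1:128588199-128592293. Cxcl12 is on the plus strand at chr6:117168535-117181367 and Ackr3 on the plus strand at chr1:90203980-90216751. The Mif transcript has 7 near-identical genes (at least 90% identity over at least 50% of its length, up to 99.4%), 6 of them annotated pseudogenes. None of the 7 is a row of the count tables, so the Mif counts are uncertain as far as reads of these copies were assigned to Mif or dropped. Ddt overlaps Gm20441 on the same strand, which has 0 UMIs in the analysed cells, and reads of both genes could have been dropped. No near-identical gene was found for the other members.

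The 250 bases before the transcription start are shown for the relatives Mif and Ddt, whose levels could be tested, and for the receptors Cd44 and Cxcr4, which have the most UMIs after them in tumour cells. The sequences are from RefSeq (GRCm38.p6), 5′ to 3′ on the gene's strand. The RefSeq starts of Mif, Ddt and Cxcr4 differ from the gene bounds given above. The Ddt window therefore overlaps the Ddt span given there, and the Mif and Cxcr4 windows do not adjoin their spans. Capitals mark the GC box GGGCGG and the E-box CACGTG on either strand, where the 2 motifs do not overlap.
Mif, minus strand, chr10:75860278-75860527: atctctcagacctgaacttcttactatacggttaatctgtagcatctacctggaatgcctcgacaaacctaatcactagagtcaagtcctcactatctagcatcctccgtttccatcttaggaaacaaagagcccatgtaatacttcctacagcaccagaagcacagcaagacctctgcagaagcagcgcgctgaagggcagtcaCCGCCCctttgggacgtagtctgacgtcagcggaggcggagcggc
Ddt, minus strand, chr10:75773375-75773624: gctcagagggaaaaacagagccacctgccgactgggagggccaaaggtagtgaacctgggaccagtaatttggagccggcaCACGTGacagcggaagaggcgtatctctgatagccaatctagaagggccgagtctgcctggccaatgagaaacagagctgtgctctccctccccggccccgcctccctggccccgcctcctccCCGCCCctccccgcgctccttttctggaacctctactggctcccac
Cd44, minus strand, chr2:102901666-102901915: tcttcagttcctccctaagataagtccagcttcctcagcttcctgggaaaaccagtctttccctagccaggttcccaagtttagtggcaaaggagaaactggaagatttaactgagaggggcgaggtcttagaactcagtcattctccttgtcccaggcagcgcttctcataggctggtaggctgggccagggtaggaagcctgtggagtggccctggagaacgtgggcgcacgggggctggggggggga
Cxcr4, minus strand, chr1:128592300-128592549: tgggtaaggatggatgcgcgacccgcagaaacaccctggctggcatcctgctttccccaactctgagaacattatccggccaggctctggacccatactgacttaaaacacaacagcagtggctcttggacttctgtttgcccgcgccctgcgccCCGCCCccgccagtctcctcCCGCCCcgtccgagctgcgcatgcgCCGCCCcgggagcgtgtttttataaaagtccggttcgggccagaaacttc

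Mif and Ddt each hold 1 GC box, Cxcr4 holds 3 and Cd44 holds 0. Of the windows not printed, Cxcl12 holds 5 GC boxes and Ackr3 holds 1. Over all 32851 promoter windows of this length in the table, 32.7% hold a GC box. The E-box, which proteins of the Myc family can bind, was found in Ddt alone among the 6 windows searched, against 6.02% of all windows. The site GACCACCCA, the classical Gli motif of the SHH pathway, was in 0 of the 6 and in 0.225% of all windows. The GC content of the printed windows was 51.2% for Mif, 62.8% for Ddt, 56.4% for Cd44 and 61.2% for Cxcr4, against a median of 52.4% over all windows. A match says only that these letters are present.

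Mif was the member with most UMIs in the analysed cells (10913 UMIs in 3401 cells), followed by Ddt (733 UMIs in 642 cells). Cd44 had 115 UMIs in 102 cells, Cd74 109 in 5 cells, Cxcr4 88 in 88 cells, Cxcl12 61 in 55 cells and Ackr3 5 in 5 cells. Each UMI is 1 captured molecule tagged at its 3′ end, so counts are not scaled by gene length. The receptors and Cxcl12 were so sparse that most of their class differences could not be tested.

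**Figure D1:**
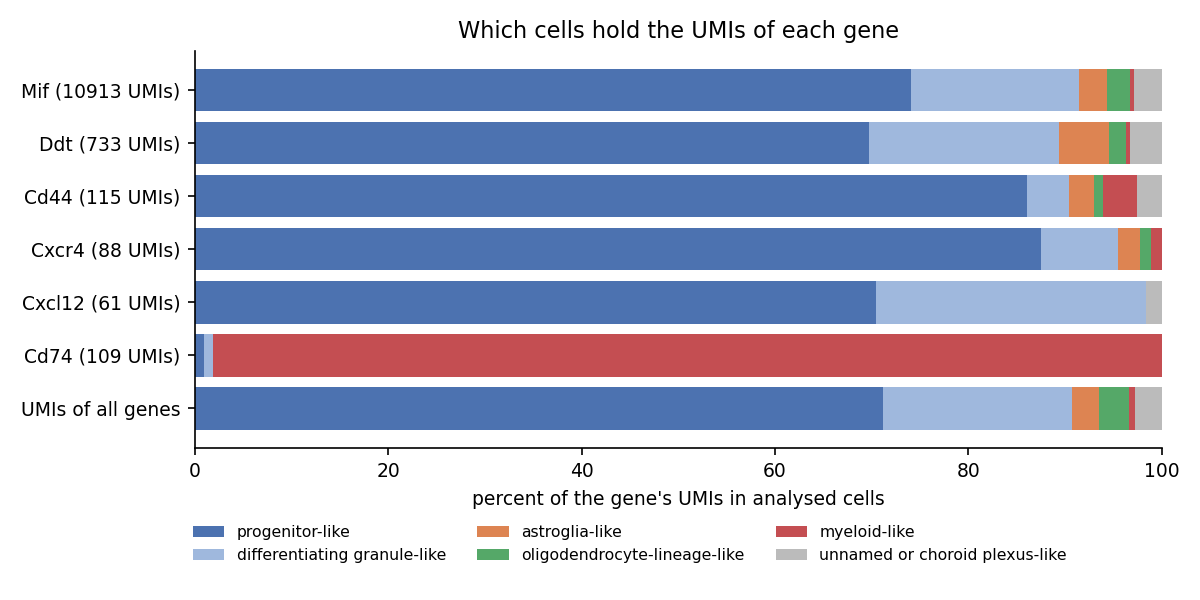
Share of each gene's UMIs (percent, horizontal axis) held by each class of cells, pooled over 4 mice, with the UMIs of all genes as the lowest bar and the number of UMIs of each gene in its label. Progenitor-like cells hold 86.1% of Cd44 and 87.5% of Cxcr4 UMIs against 71.2% of the UMIs of all genes, Cxcl12 has no UMI in the astroglia-like, oligodendrocyte-lineage-like or myeloid-like class, and 98.2% of Cd74 UMIs are in the myeloid-like class. Mouse 1 holds 73.0% of the Cd44 UMIs. Of its 1368 cells 1083 are progenitor-like, against 2967 of 4137 in all mice, and the pooled shares do not allow for this.

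Mif was found in every class. Its level in CPM (counts per 1000000 UMIs of the class in a mouse) was 1349 ± 90.5 in S phase progenitor-like cells (SD, n = 4 mice), 1107 ± 70.2 in astroglia-like cells and 1015 ± 142 in non-cycling progenitor-like cells. It was 1003 ± 80.8 in G2M phase, 942 ± 14.4 in differentiating granule-like, 824 ± 215 in oligodendrocyte-lineage-like and 776 ± 253 in myeloid-like cells. Only S phase cells stood apart from the next class in this order without overlap of the mice: the lowest S phase value was 1256 CPM and the highest astroglia-like value 1206 CPM. Every other pair of neighbours in this order overlapped between mice.

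**Figure D2:**
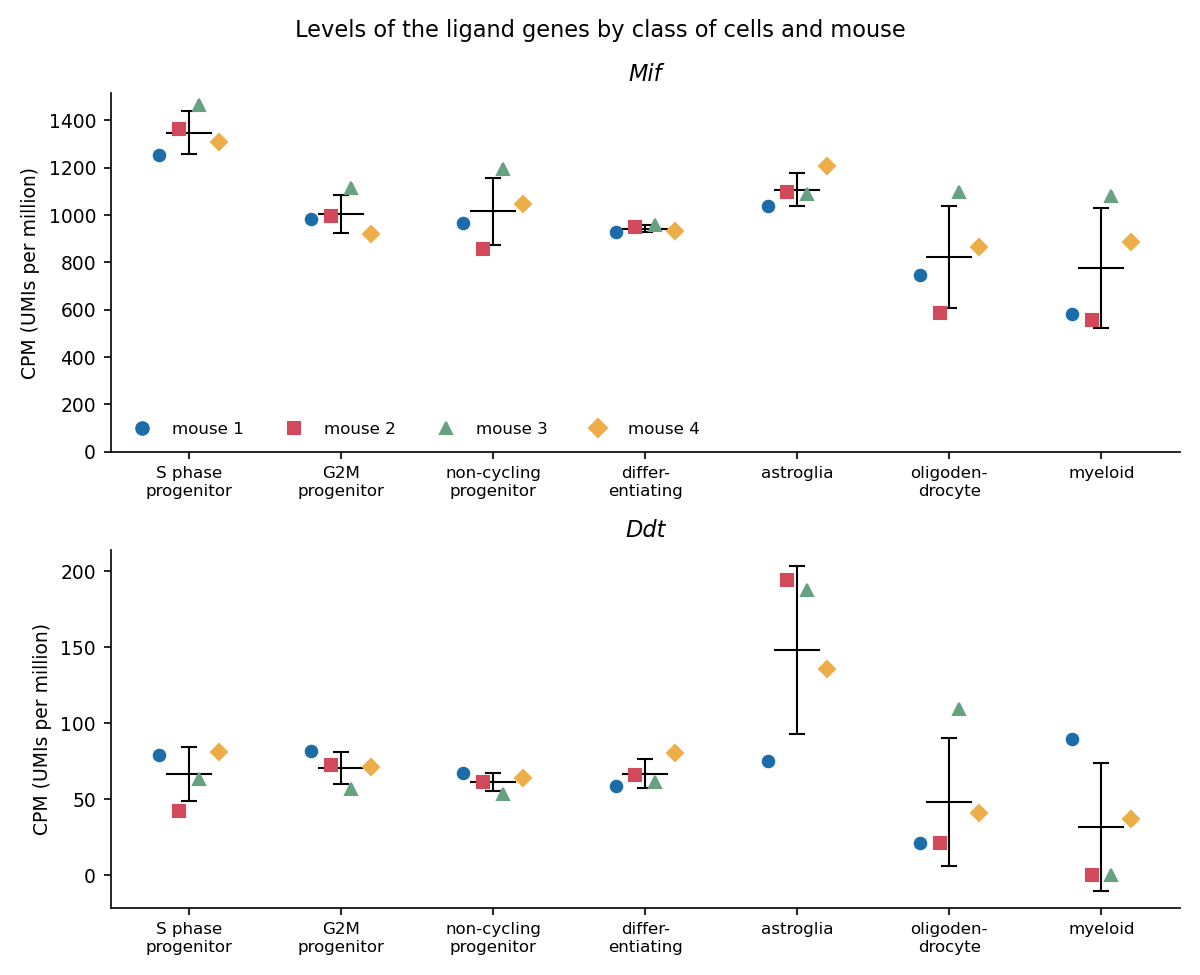
Levels of Mif (upper panel) and Ddt (lower panel) in CPM, by class of cells; each point is 1 mouse, the bar is the mean and the whiskers are 1 SD over 4 mice. For Mif all S phase points lie above all non-cycling points, and for Ddt 3 of the 4 astroglia-like points lie above 130 CPM while mouse 1 is at 75.2 CPM.

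In S phase the Mif level was 1256, 1365, 1467 and 1307 CPM in mice 1 to 4, against 968, 856, 1193 and 1045 CPM in non-cycling progenitor-like cells of the same mice. Every mouse was higher in S phase and the groups did not overlap. Mif rose by a log2 fold change of 0.39 ± 0.06 (standard error) with an adjusted p of 1.74e-09 in edgeR's quasi-likelihood test over 5692 genes. Of those genes 15.7% were called in either direction, 9.01% as higher and 6.71% as lower, and 1 of the 2 members tested was called. The call was kept under each of the 17 alternatives run, with log2 fold changes from 0.26 to 0.44. Levels per cell at equal depth showed the same order: with cells thinned to 1000 UMIs, 71.3% of S phase cells and 64.4% of non-cycling cells held a Mif UMI (unthinned 89.4% and 81.8%).

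G2M phase cells had 985, 996, 1113 and 918 CPM of Mif, which overlapped the non-cycling cells. The log2 fold change was 0.01 ± 0.06 (edgeR adjusted p = 0.959), higher in 2 of 4 mice. No member was called in this comparison, in which 19% of 6692 genes were, 10.5% as higher and 8.44% as lower. Both cycle comparisons use the same non-cycling cells as reference. Among progenitor-like clusters the highest Mif level, 1476 ± 89.7 CPM, was in a cluster of 711 cells whose median Malat1 level was 8.37 UMIs per 10000, and its part in the results was not tested beyond leaving low-Malat1 cells out, where the S phase log2 fold change was 0.35 (edgeR adjusted p = 2.94e-06).

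Differentiating granule-like cells had 927, 949, 959 and 934 CPM of Mif, and progenitor-like cells 1075, 1089, 1240 and 1054 CPM. All 4 mice were lower in the differentiating class and the groups did not overlap. Mif fell by 0.25 ± 0.06 on the log2 scale (edgeR adjusted p = 0.00045, 8295 genes tested, 17% called, 8.03% as higher and 8.98% as lower), and it was the 1 member called of 2 tested. Without the mouse as a block the adjusted p was 0.0895. The size moved with how the class was drawn: it was -0.93 with the cell cycle regressed out before clustering, which left 178 differentiating cells, and -0.80 with at most 5% mitochondrial UMIs, which left 177.

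Among the other classes, oligodendrocyte-lineage-like cells had 745, 586, 1097 and 866 CPM of Mif in mice 1 to 4 and granule-lineage-like cells 1055, 1049, 1219 and 1017 CPM. Each mouse was lower, with overlap between mice. The log2 fold change was -0.50 ± 0.18 (edgeR adjusted p = 0.029, 7456 genes tested, 21.2% called and 9.99% as lower, 1 of 2 members tested called). The call was lost without mouse 1 (adjusted p = 0.148) or mouse 2 (adjusted p = 0.235), and with at most 5% mitochondrial UMIs the log2 fold change was -0.12. Myeloid-like cells had 582, 555, 1082 and 887 CPM, lower in each mouse with overlap between mice. Their log2 fold change was -0.87 ± 0.31 (edgeR adjusted p = 0.0402, 6502 genes tested, 14.9% called, 3.86% as higher and 11% as lower, 1 of 2 members tested called), but the median over all genes tested was -1.1, which is lower than the value of Mif. The call was lost without mouse 1 (adjusted p = 0.162), without mouse 2 (adjusted p = 0.143), without 2 cells rich in S100a8 and S100a9 (adjusted p = 0.0524), and with DESeq2's size factors (log2 fold change -0.53, adjusted p = 0.178). With cells thinned to equal depth as above, 69.0% of 29 myeloid-like cells held a Mif UMI (exact interval 49.2% to 84.7%). That share was not lower than the 63.9% of granule-lineage-like cells, which lies inside the interval. In oligodendrocyte-lineage-like cells the thinned share was lower, at 51.2% (42.0% to 60.4%). In astroglia-like cells Mif was at 1040, 1097, 1088 and 1206 CPM, with a log2 fold change of 0.11 ± 0.17 against the granule lineage (edgeR adjusted p = 0.844). Astroglia-like and oligodendrocyte-lineage-like cells differed by 0.25 ± 0.17 in log2 Mif (edgeR adjusted p = 0.279, 1218 genes tested, 30.5% called), and 0 of the 1 member tested was called.

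Free RNA of the tumour cells can add Mif UMIs to other droplets. The 9 granule-lineage markers together gave 18.1 UMIs per 10000 in granule-lineage-like cells, 12.5 in astroglia-like, 6.17 in oligodendrocyte-lineage-like and 5.10 in myeloid-like cells. Per marker UMI there were 0.588 Mif UMIs in the granule lineage, 0.898 in astroglia-like, 1.28 in oligodendrocyte-lineage-like and 1.5 in myeloid-like cells. In every mouse with marker UMIs the ratio was higher in each of these classes than in its granule lineage, the lowest being 0.674 in astroglia-like cells of mouse 3 against 0.621. Mouse 3 had 0 marker UMIs in its 5 myeloid-like cells, at 1082 CPM of Mif. The myeloid-like ratios of mice 1, 2 and 4 rest on 8, 4 and 22 marker UMIs. The make-up of free RNA was not measured, and its part in these Mif counts was not tested.

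Ddt, the relative of Mif, had similar levels in the tumour states and its highest mean of the tested classes in astroglia-like cells. Its level was 66.4 ± 17.9 CPM in S phase, 70.5 ± 10.3 in G2M phase, 61.4 ± 5.81 in non-cycling and 66.6 ± 9.58 in differentiating cells (SD, n = 4), and none of these neighbours differed beyond their spread. The log2 fold changes were -0.03 ± 0.16 for differentiating against progenitor-like cells (edgeR adjusted p = 0.939), 0.10 ± 0.20 for S phase (0.806) and 0.23 ± 0.19 for G2M phase (0.453) against non-cycling cells. Astroglia-like cells had 75.2, 195, 188 and 136 CPM in mice 1 to 4 and granule-lineage-like cells 74.5, 62.2, 58.3 and 75.7 CPM. The difference was large in mice 2 to 4 and near 0 in mouse 1. Ddt rose by a log2 fold change of 1.04 ± 0.30 (edgeR adjusted p = 0.0187), the 1 member called of 2 tested in a comparison in which 4.37% of 6980 genes were called and 2.75% as higher. The class held 38 Ddt UMIs in all. The call was lost in 11 of 15 alternatives, among them leaving out mouse 2 (adjusted p = 0.314), mouse 3 (0.0585) or mouse 4 (0.223), while without mouse 1 it stood at 1.31 (adjusted p = 0.0105). Without the count filter it was 0.87 (adjusted p = 0.117, 2.24% of 16185 genes called). With at most 5% mitochondrial UMIs the log2 fold change was 0.081, and without low-Malat1 cells the 2 mice left had a mean of 68.5 CPM.

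In oligodendrocyte-lineage-like cells Ddt was at 21.3, 20.9, 110 and 40.9 CPM (13 UMIs), a log2 fold change of -0.82 ± 0.42 against the granule lineage (edgeR adjusted p = 0.165). Myeloid-like cells held 3 Ddt UMIs, and their log2 fold change of -0.94 ± 0.91 did not pass (edgeR adjusted p = 0.488). Between astroglia-like and oligodendrocyte-lineage-like cells Ddt was below the count filter. Without that filter it was called (log2 fold change 1.84, edgeR adjusted p = 0.00793, 5.5% of 12877 genes called).

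**Figure D3:**
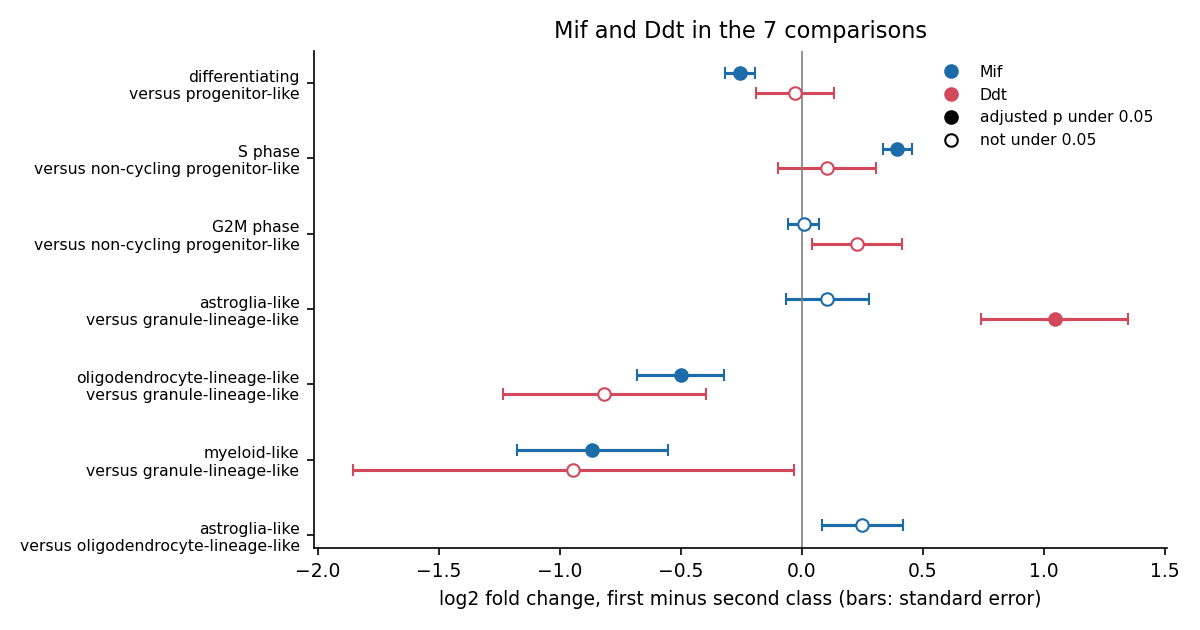
Log2 fold changes of Mif and Ddt (horizontal axis, first minus second class) in the 7 comparisons (vertical axis), from edgeR with the mouse as a block; whiskers are the standard error of the test and filled points have an adjusted p under 0.05. Mif is filled for S phase (0.39), differentiating (-0.25), oligodendrocyte-lineage-like (-0.50) and myeloid-like cells (-0.87), and Ddt for astroglia-like cells (1.04).

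Cd74, the receptor subunit that MIF and DDT bind, was nearly absent outside 1 cell. Of its 109 UMIs, 105 (96.3%) were in a single myeloid-like cell of mouse 1, which held 3994 UMIs in all. That cell also held 92 UMIs of H2-Aa, 75 of H2-Ab1 and 41 of H2-Eb1, the MHC class II chains that Cd74 escorts, 12 of H2-DMa, 5 of H2-DMb1, 2 of Ciita, their transcriptional activator, and 2 of Ccr2. Of the listed microglia and macrophage markers it held 3 UMIs of Lyz2, 3 of Tyrobp and 2 of Fcer1g, and it held 6 UMIs of Ctss. It had 0 UMIs of C1qa, C1qb, C1qc, Cx3cr1, P2ry12 and Csf1r, and 0 of Cd79a, Cd79b, Ms4a1 and Cd3e. No Mif, Cd44 or Cxcr4 UMI was found in it.

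In the other 38 myeloid-like cells Cd74 had 2 UMIs in 2 cells, a share of 5.26% (exact 95% interval 0.644% to 17.7%, counting error only, as for all intervals here), and MHC class II chains had 1 UMI. By contrast 33 of the 39 myeloid-like cells held a UMI of C1qa, C1qb or C1qc, complement genes of microglia and macrophages. Granule-lineage-like cells, which are not known for Cd74, held 2 UMIs in 3728 cells (0.0536%), at a median of 2114 UMIs per cell against 1236 in myeloid-like cells. Astroglia-like and oligodendrocyte-lineage-like cells held 0 in 149 and 147 cells, which allows up to 2.01% and 2.04% of cells with a UMI and sets no limit on cells that express the gene below this depth. The myeloid-like level was 4703, 111, 0 and 36.9 CPM in mice 1 to 4, so a mean over mice describes 1 cell. With all 4 mice Cd74 was below the count filter in every comparison. Against the granule lineage it was called without that filter (9.99% of 16374 genes called). With mouse 3 left out it passed the filter and was called too (edgeR adjusted p = 1.03e-45). Both calls include this cell, and Cd74 was not fitted without it. The other 38 myeloid-like cells had 31.9 CPM from 2 UMIs, against 0.213 CPM in pooled granule-lineage-like cells.

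**Figure D4:**
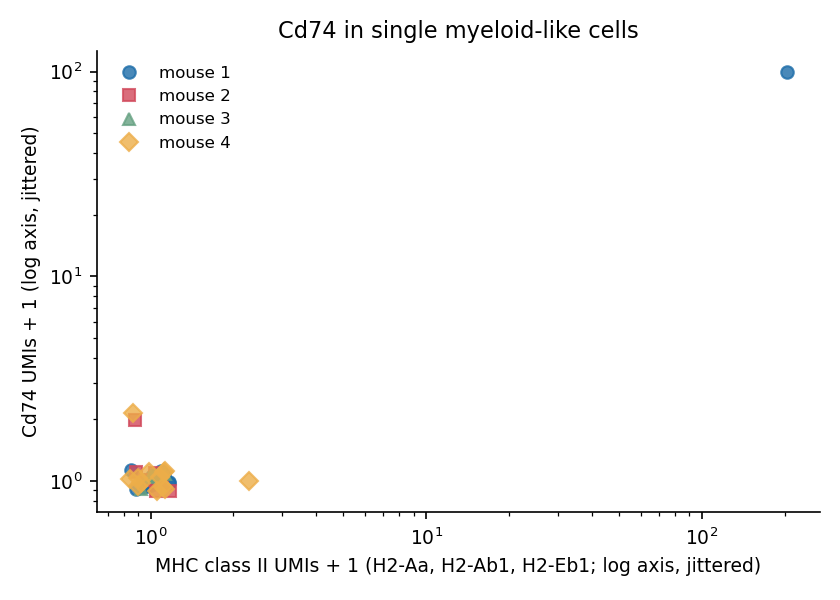
Cd74 UMIs (vertical axis, plus 1, log scale) against the summed UMIs of H2-Aa, H2-Ab1 and H2-Eb1 (horizontal axis, plus 1, log scale) in the 39 myeloid-like cells; each point is 1 cell, coloured by mouse and shifted slightly at random so that points can be seen. One cell of mouse 1 lies at 105 Cd74 UMIs and 208 MHC class II UMIs, and the other 38 lie at 0 or 1 on both axes.

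Cd44, the hyaluronan receptor that partners Cd74, was found at low level in the tumour lineage and was uneven between mice. Granule-lineage-like cells held 104 of its 115 UMIs (90.4%), close to their 90.7% of the UMIs of all genes, and mouse 1 held 84 of the 115. In all cells its level was 26.9, 6.01, 4.34 and 3.15 CPM in mice 1 to 4. Mouse 1 stood apart; its library was sequenced in 2 rounds, whose part in this was not tested, while its median depth of 2088.5 UMIs per cell lay within the range of the others.

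By state, non-cycling progenitor-like cells had 56.3, 20.4, 4.11 and 14.8 CPM of Cd44, S phase cells 26.4, 0, 2.63 and 1.5, and G2M phase cells 17.3, 4.05, 5.15 and 3.24 CPM. Differentiating granule-like cells had 5.36, 4.95, 0 and 0 CPM from 5 UMIs. In mice 1, 2 and 4 the non-cycling value was the highest of the 4, and in mouse 3, with 1 non-cycling Cd44 UMI, it was not. With all 4 mice Cd44 missed the count filter in these comparisons. Without the filter it was called lower in differentiating than in progenitor-like cells (log2 fold change -1.98, edgeR adjusted p = 0.0064), where 8.23% of 16070 genes were called. It was also called lower in S phase (-1.42, adjusted p = 0.00257, 5.71% of 14774 genes called) and in G2M phase (-1.62, adjusted p = 0.000247, 8.23% of 15048 genes called) than in non-cycling cells. With mouse 3 left out Cd44 passed the filter and was called lower in S phase (-1.49, edgeR adjusted p = 0.00803) and G2M phase (-1.83, adjusted p = 3.73e-05). With mouse 4 left out it passed the filter and was called lower in G2M phase (-1.62, adjusted p = 0.000546). With mouse 1 left out Cd44 was below the filter, so none of these calls was tested without the mouse that holds most of its UMIs.

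Of the 115 Cd44 UMIs, 58 lay in a progenitor-like cluster of 590 cells led by Thrsp, Hes1 and Pdlim3. Cd44 was not used to form the clusters, but the cluster was singled out after its Cd44 values were seen, so they are a description without a test. It had 49.7, 14.7, 34.0 and 14.5 CPM of Cd44 in mice 1 to 4, against 19.1, 3.36, 2.62 and 2.18 CPM in the other progenitor-like cells of the same mice. The cluster was higher in each of the 4 mice, from 47, 5, 2 and 4 UMIs. Of its cells 53.4% were non-cycling, against 22.6% of all progenitor-like cells, and 384 of the 590 came from mouse 1. Hes1, a transcriptional repressor downstream of Notch and other signals, had 84.5 ± 23.2 CPM there and 18.7 ± 8.47 CPM in the other progenitor-like cells. As a leading gene of the cluster Hes1 was picked because it is raised there, so its difference is a description too. Mif was at 1104 ± 171 and 1131 ± 78.5 CPM in the same pair of groups.

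Outside the tumour lineage Cd44 had 3 UMIs in astroglia-like, 1 in oligodendrocyte-lineage-like and 4 in myeloid-like cells. Myeloid-like cells held a Cd44 UMI in 3 of 39 cells (7.69%, exact 95% interval 1.62% to 20.9%) and granule-lineage-like cells in 92 of 3728 (2.47%, 1.99% to 3.02%). Of these 3 myeloid-like cells, 1 held 79 UMIs of C1qa, C1qb and C1qc together and 1 Cd44 UMI. The others held 0 UMIs of these complement genes, with 2 and 1 Cd44 UMIs. The shares do not allow for the lower depth of myeloid-like cells. As pooled levels, myeloid-like cells had 59.9 CPM (exact Poisson 95% interval 16.3 to 153) and granule-lineage-like cells 11.1 CPM (9.06 to 13.4), which do not overlap in counting error. Over mice the myeloid-like level was 0, 222, 0 and 73.9 CPM, and without the count filter the difference did not pass (log2 fold change 1.98, edgeR adjusted p = 0.261).

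**Figure D5:**
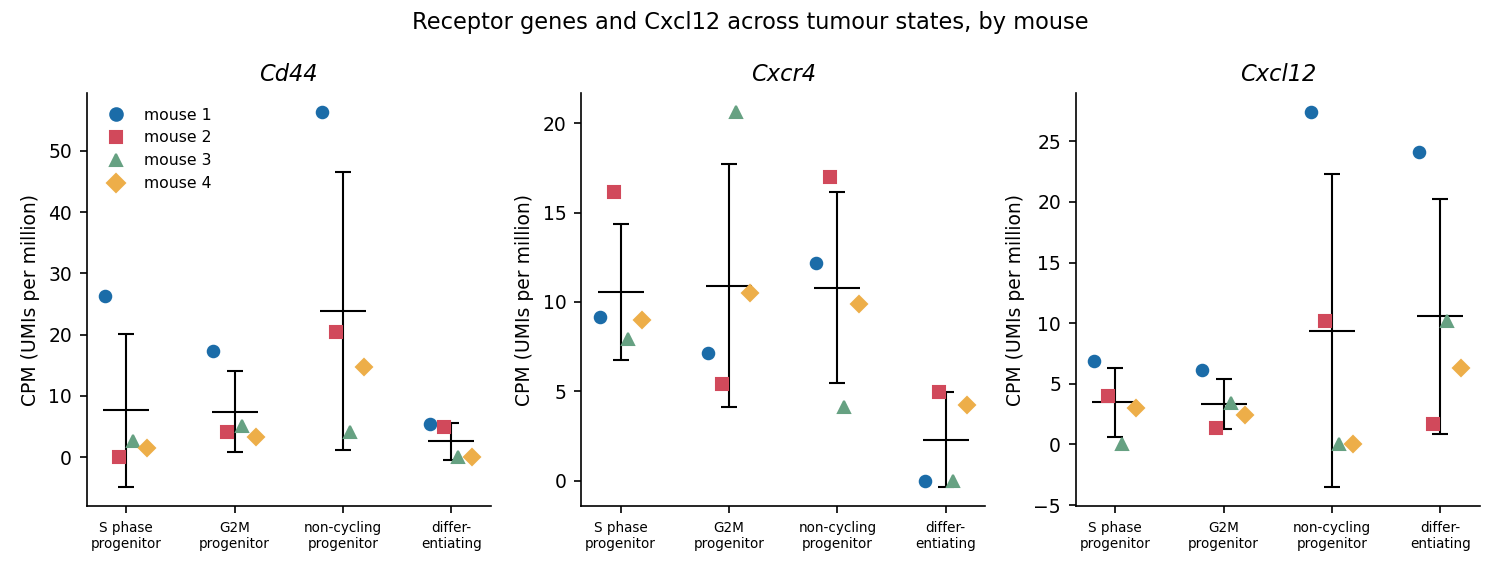
Levels of Cd44, Cxcr4 and Cxcl12 in CPM (vertical axes, with a scale of their own in each panel) in 4 tumour states; each point is 1 mouse, the bar is the mean and the whiskers are 1 SD over 4 mice. Mouse 1 is the highest for Cd44 and for Cxcl12 in each of the 4 states. For Cxcr4 all 4 progenitor-like S phase values (7.90 to 16.2 CPM) lie above all differentiating values (0 to 4.95 CPM). The differentiating values rest on 7 UMIs, and counting error is not drawn.

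Cxcr4, the CXCL12 receptor that also binds MIF, was sparse. Its measured level was higher in progenitor-like than in differentiating granule-like cells of each mouse, the latter from 7 UMIs. Of its 88 UMIs, each in a cell of its own, 77 (87.5%) were in progenitor-like cells, which held 71.2% of the UMIs of all genes, and 7 (7.95%) in differentiating granule-like cells, which held 19.6%. Progenitor-like cells had 9.16, 11.1, 13.3 and 9.97 CPM in mice 1 to 4 and differentiating cells 0, 4.95, 0 and 4.23 CPM. The lowest progenitor-like mouse lay above the highest differentiating mouse. Cxcr4 was below the count filter here, and without the filter it was called lower in differentiating cells (log2 fold change -1.66, edgeR adjusted p = 0.0186). With mouse 1 or mouse 3 left out Cxcr4 passed the filter, and its log2 fold change was -1.35 without mouse 1 (adjusted p = 0.0909) and -1.52 without mouse 3 (adjusted p = 0.0339). The mice of the 3 phases overlapped: S phase cells had 10.6 ± 3.78, G2M phase cells 10.9 ± 6.81 and non-cycling cells 10.8 ± 5.34 CPM. Without the filter the log2 fold changes were -0.10 for S phase (edgeR adjusted p = 0.975) and -0.11 for G2M phase (0.948) against non-cycling cells.

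In astroglia-like, oligodendrocyte-lineage-like and myeloid-like cells Cxcr4 had 2, 1 and 1 UMIs. The exact 95% intervals of the share of cells with a UMI, 0.163% to 4.76%, 0.0172% to 3.73% and 0.0649% to 13.5%, include the 2.25% of granule-lineage-like cells. A difference from the tumour cells was therefore not detectable at this depth.

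Cxcl12, the ligand of Cxcr4 and Ackr3, was found at low level in tumour cells and in no cell of the named glial or myeloid classes. Granule-lineage-like cells held 60 of its 61 UMIs and the unnamed cells the other one. In granule-lineage-like cells its level was 13.5, 3.28, 2.30 and 3.60 CPM in mice 1 to 4, with mouse 1 highest and holding 39 of the 61 UMIs. Differentiating cells had 24.1, 1.65, 10.2 and 6.34 CPM from 17 UMIs and progenitor-like cells 11.9, 3.92, 1.66 and 2.37 CPM from 43, with overlap. Without the filter the difference did not pass (log2 fold change 0.81, edgeR adjusted p = 0.43), nor did S phase (-1.49, adjusted p = 0.189) or G2M phase (-1.54, adjusted p = 0.106) against non-cycling cells.

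The 0 UMIs of Cxcl12 in astroglia-like, oligodendrocyte-lineage-like and myeloid-like cells allow up to 3 UMIs per class, which is 10.7, 9.21 and 45.0 CPM. These limits lie above the 6.40 CPM of pooled granule-lineage-like cells, so a lower level in these classes was not detectable. Of the 55 cells with Cxcl12, 0 held an endothelial marker, 1 a mural and 2 a meningeal marker, and 53 held a granule-lineage marker. Over the other 4082 cells those marker lists were found in 3.31%, 5.90%, 1.86% and 88.1%. An astroglia marker was found in 43 of the 55 cells (78.2%) and in 70.9% of the other cells. A microglia marker was found in 0 of the 55 and in 3.72% of the other cells.

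Ackr3, the atypical CXCL12 receptor, had 5 UMIs in 5 cells: 2 progenitor-like, 2 differentiating granule-like and 1 oligodendrocyte-lineage-like. Its level over all analysed cells was 0.484 CPM, below the count filter. Without the filter it was fitted in all 7 comparisons and passed in none, with edgeR adjusted p from 0.725 to 0.970.

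Transcripts of the sparse members were seldom seen in the same cell, and this depth cannot show absence. Of 88 cells with Cxcr4, 2 also held Cxcl12 and 4 held Cd44, and no cell held both Cd74 and Cd44, Cd74 and Cxcr4, or Cxcr4 and Ackr3. Mif was found in 88 of the 102 cells with Cd44 (86.3%) and 78 of the 88 cells with Cxcr4 (88.6%), against 82.2% of all cells. The cells with Cd44 and Cxcr4 had median depths of 2789 and 3164 UMIs, against 2070 over all cells, and the part of depth in these shares was not tested.

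The genes whose levels ran most like each member were looked up over 28 class-by-mouse sums among 9804 genes with at least 50 UMIs, as a description; the sums share libraries, depth and cell classes. For Mif the highest Pearson correlations were with Dctpp1 (0.83), U2af1 (0.82) and Pdap1 (0.81). Those of Ddt were Tox4 (0.90), Snrnp27 (0.89) and Mcrs1 (0.87), and those of Cd74 were H2-Aa (0.93), H2-Ab1 (0.86) and Abca1 (0.85). Cd44 ran with Ankrd13c (0.77), Acaa2 (0.74) and Neat1 (0.72), Cxcr4 with Sun2 (0.85), Notch2 (0.82) and Zfp385b (0.80), and Cxcl12 with Gm17259 (0.79) and Efna4 (0.72). Most of these genes and the last 4 members are near the floor of the log scale in many sums.

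Other genes of the network were taken from lists of 65 pathway genes found in the files: MIF release, further ligands and receptors, CD74 and CD44 partners, receptor coupling and downstream signalling. Between differentiating and progenitor-like cells 10 of 40 tested genes were called, 4 higher and 6 lower, which is 25% against 17% of all genes tested, with a median log2 fold change of -0.02 against 0.00 over all genes. Elmo1, an activator of Rac downstream of chemokine receptors, rose by 1.77 ± 0.26 (43.7 ± 10.0 against 11.7 ± 1.64 CPM, edgeR adjusted p = 1.48e-10). Hmgb1, a chromatin protein that can form a complex with CXCL12 outside the cell, fell by 0.54 ± 0.06 (adjusted p = 3.89e-17). Gnai2, an inhibitory G protein subunit that couples CXCR4, fell by 0.61 ± 0.09 (205 ± 23.9 against 313 ± 17.3 CPM, adjusted p = 1.2e-09), while Gnb1, a beta subunit, rose by 0.34 ± 0.09 (adjusted p = 0.00159). Ezr, which links CD44 to actin, fell by 0.29 ± 0.09 (adjusted p = 0.0121), and Rps19, a ribosomal protein reported to bind MIF, fell by 0.16 ± 0.05 (adjusted p = 0.00626). Without the mouse block 3 of the 40 genes were called.

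Against non-cycling cells 3 of 29 pathway genes were called in S phase (1 higher, 2 lower) and 3 of 31 in G2M phase (1 higher, 2 lower), the same 3 genes both times with the same reference cells. These are 10.3% and 9.68% of the pathway genes, below the 15.7% and 19% called over all genes. Hmgb1 rose by 0.37 ± 0.06 in S phase (edgeR adjusted p = 8.81e-08) and 0.86 ± 0.06 in G2M phase (adjusted p = 3.01e-19). Mmp14, a membrane protease that can cleave CD44, fell by 0.69 ± 0.19 and 0.95 ± 0.18 (adjusted p = 0.00281 and 5.12e-05). Rps19 fell by 0.17 ± 0.04 and 0.24 ± 0.04 (adjusted p = 0.000807 and 1.51e-05). The medians of the lists were -0.08 and -0.02, against -0.02 and -0.03 over all genes. Without the mouse block the S phase count was 0.

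Against the granule lineage 1 of 34 pathway genes was called in astroglia-like cells, 11 of 38 in oligodendrocyte-lineage-like cells (7 higher, 4 lower) and 8 of 34 in myeloid-like cells (4 higher, 4 lower), all 3 with the same reference. The shares were 2.94%, 28.9% and 23.5%, against 4.37%, 21.2% and 14.9% of all genes tested. The chemokine gene Cxcl14 rose in astroglia-like cells (45.8 ± 7.10 against 8.91 ± 2.31 CPM, log2 fold change 2.57 ± 0.61, edgeR adjusted p = 0.00116) and in oligodendrocyte-lineage-like cells (76.2 ± 36.8 CPM, 3.15 ± 0.46, adjusted p = 6.36e-10). Oligodendrocyte-lineage-like cells were also higher in Vcan, a proteoglycan that binds hyaluronan (124 ± 64.2 against 27.0 ± 7.64 CPM, adjusted p = 2.52e-10), and in Stat3, a signal-activated transcription factor (86.8 ± 28.1 against 8.70 ± 2.15 CPM, adjusted p = 2.81e-09). They were higher in Elmo1 by 1.95 ± 0.44 and lower in Ezr by a log2 fold change of -1.73 ± 0.28 and in Rps19 by -0.83 ± 0.18 (adjusted p = 0.000143, 3.46e-08 and 8.08e-05).

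Myeloid-like cells held Ctss, the protease that trims CD74 in antigen presentation, at 3234 ± 1199 CPM against 0.255 ± 0.330 CPM in the granule lineage, from 218 and 3 UMIs (edgeR adjusted p = 1.27e-147). Spp1, the secreted CD44 ligand osteopontin, was at 886 ± 1337 against 0.552 ± 0.674 CPM from 39 and 4 UMIs (adjusted p = 7.12e-59), with an SD larger than the mean. Lyn, a kinase of the Src family, was at 154 ± 95.2 against 0.782 ± 0.840 CPM (adjusted p = 1.84e-18). Hmgb1, Rdx and Ezr were lower by log2 fold changes of -2.64, -2.75 and -2.91 (adjusted p = 1.56e-10, 0.000447 and 0.000946), beside a median of -1.1 over all genes. Fitted fold changes of genes with so few reference UMIs depend on the prior count and are not given. Between astroglia-like and oligodendrocyte-lineage-like cells 3 of 9 tested genes were called (33.3%, near the 30.5% of all genes tested), all higher in astroglia-like cells: Ezr by 1.24 ± 0.35, Hmgb1 by 0.51 ± 0.17 and Rps19 by 0.51 ± 0.17 (edgeR adjusted p = 0.00587, 0.0204 and 0.0207).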

How the data were processed

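Tumours of 4 mice gave 1 droplet library each, and each deposited table gives, per gene, the UMI counts of every cell barcode, as the authors made them with Cell Ranger 2.0.2 and mm10, with Seurat also named, per the submitters' processing notes. The annotation release is not given in the sources used here. Library totals were 1679285 to 3801197 UMIs over 5670 barcodes. Cells needed at least 500 detected genes and at most 10% mitochondrial UMIs, which left 4137; 1050 barcodes had too few genes and 483 others exceeded the mitochondrial limit. The design text states 4749 cells; 4620 barcodes in the files had 500 genes.

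Cells were clustered with scanpy 1.11.5 (2000 variable genes, 30 principal components, 15 neighbours, Leiden resolution 1), with members, pathway and cycle genes kept out, and 409 non-granule cells were clustered again. Granule-lineage clusters were called differentiating where the median differentiating marker was at least 0.5 above the lineage mean on the log2 scale, and otherwise progenitor-like, which is thus a remainder. Any other cluster was named from at least 3 markers raised by a log2 difference of 1 in at least 10% of its cells; the further demand on the median marker was chosen after the data were seen. Classes were rebuilt here, so differences from the study may come from that. No doublet caller was run; leaving out cells with markers of another class was an alternative.

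For each class, the UMIs of 1 mouse were added up, and these sums entered edgeR 4.0.16 in R 4.3.3 (quasi-likelihood, TMM, filterByExpr, mouse as block, Benjamini-Hochberg over all genes tested, threshold 0.05). The script was tested on simulated data. The block follows from classes sharing an animal; deviations of the same mouse correlated at 0.016 to 0.45. Sums needed 5 cells in at least 3 mice. Correlations used log2(CPM + 10). Exact 95% Clopper-Pearson intervals, and limits of 3 counts for a count of 0, cover counting error only. Alternatives were other scaling, no filter, DESeq2 1.42.0, no block, leaving out each mouse, other cell limits, thinning, other clusterings and left-out cells. Named were all members, up to 6 called pathway genes with the smallest adjusted p in each comparison, and the 3 genes most like each member with at least 50 UMIs, of which 1 is not reported here. The members and lists were chosen with earlier results of these data known. The genome position and promoter of Cd74 are not reported here.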

Additional observations from a re-analysis of the deposited data

Results flagged for a closer look

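In each group of 4 mice the highest and lowest level of a member was compared with the other 3 by its gap over the group's range, against Dixon's critical value. Of 35 groups with at least 10 UMIs 9 passed, where chance gives about 1 in 20. Over all cells Mif was at 1210 CPM in mouse 3, against 1017 to 1045 CPM in the others. Cd74 in mouse 1 was at 4703 CPM in myeloid-like cells and 33.9 CPM in all cells, both from the cell with 105 Cd74 UMIs. Cd44 in mouse 1 stood apart in S phase (26.4 CPM), G2M phase (17.3 CPM), progenitor-like (30.7 CPM) and all cells (26.9 CPM), which are overlapping sets of cells. Cxcr4 was at 16.2 CPM in S phase cells of mouse 2, against 7.90 to 9.17 CPM, and Cxcl12 at 12.5 CPM in all cells of mouse 1, against 2.17 to 3.43 CPM.

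The 1533 barcodes left out of the comparisons also held member UMIs: 1147 of Mif, 68 of Ddt, 9 of Cd74, 8 of Cd44, 12 of Cxcr4 and 4 of Cxcl12. All 9 Cd74 UMIs were in 1 barcode of mouse 3 with 449 UMIs, 304 genes and 13.1% mitochondrial UMIs, which also held 5 UMIs of H2-Aa, 6 of H2-Ab1 and 3 of H2-Eb1.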

How the results depend on the processing

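Depth and cell number limit what could be tested: 5 of the 7 members missed the count filter in the 7 comparisons, and the myeloid-like class has 39 cells. Without the filter 3 members were called in differentiating cells, 2 in S phase and 1 in G2M phase, where 8.23%, 5.71% and 8.23% of all genes were. There were 0 in astroglia-like cells, 2 in myeloid-like cells and 1 between both glial classes, where 2.24%, 9.99% and 5.5% of all genes were called. In oligodendrocyte-lineage-like cells Mif was called without the filter (edgeR adjusted p = 0.000866), where 13.1% of all genes were. Without the replicate block 0 members were called in differentiating cells (Mif -0.28, edgeR adjusted p = 0.0895) and 0 in oligodendrocyte-lineage-like cells (Mif adjusted p = 0.0506), and pathway genes called in differentiating cells went from 10 to 3. Members called in astroglia-like cells were also 0 with DESeq2, a lower minimum of detected genes, at most 5% mitochondrial UMIs, thinning to 1000 UMIs, Leiden resolution 0.6, cycle scores regressed out, and without cells with 2 markers of another class. In oligodendrocyte-lineage-like cells they were 0 with DESeq2, the lower gene minimum and at most 5% mitochondrial UMIs. In myeloid-like cells they were 0 with DESeq2's size factors, DESeq2, at most 5% mitochondrial UMIs, thinning, and without cells with 10 or more S100a8 and S100a9 UMIs, chosen after seeing the data. Leaving out 1 mouse at a time gave 1 to 2 members called in differentiating cells and in S phase, 0 to 1 in G2M phase, in astroglia-like cells and between both glial classes, and 0 to 2 in oligodendrocyte-lineage-like and myeloid-like cells.

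All 22 changes of sign were of differences that passed in no setting. For Ddt in differentiating cells the log2 fold change was 0.10 with the lower gene minimum, 0.017 thinned, 0.13 at Leiden resolution 1.5 and -0.12 to 0.082 leaving out a mouse. For Ddt in S phase it was -0.11 thinned, -0.0018 at Leiden resolution 0.6 and -0.0087 to 0.26 leaving out a mouse. For Mif in G2M phase it was -0.00081 without the replicate block, -0.064 thinned, -0.0021 at Leiden resolution 0.6, -0.014 with phase scores of at least 0.1, -0.068 without low-Malat1 cells, -0.0034 without cells with 2 markers of another class and -0.052 to 0.065 leaving out a mouse. For Mif in astroglia-like cells it was -0.069 without the filter, -0.28 with at most 5% mitochondrial UMIs, -0.11 thinned, -0.21 without cells with 2 markers of another class and -0.049 to 0.18 leaving out a mouse. Between both glial classes Mif was at -0.10 with at most 5% mitochondrial UMIs and -0.026 thinned. The cause of these changes was not tested.

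Pathway genes called ranged from 3 to 11 in differentiating cells, 0 to 4 in S phase, 2 to 6 in G2M phase, 0 to 2 in astroglia-like, 3 to 11 in oligodendrocyte-lineage-like and 5 to 19 in myeloid-like cells, and 0 to 4 between both glial classes. Both astroglia-like comparisons without low-Malat1 cells, and the myeloid-like one without cells with 2 markers of another class, left too few cells per mouse and were not fitted.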
